A study of Mus musculus with 24 samples.

Results

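The 36kb Hoxa2PTE deletion was examined in the second pharyngeal arch (PA2) of E11.5 mouse embryos, where 2 libraries of deletion embryos were set against 2 libraries of wild-type (WT) embryos, which is 4 of the 24 libraries of the series. All 4 were taken by their sample titles, which number biological replicates. The method was promoter capture Hi-C, in which cross-linked chromatin is cut with HindIII, ligated, and enriched for junctions that carry a gene promoter. The lists give called pairs of fragments, 1 list per library, with a promoter fragment first, its other end second and a score of at least 5. The deletion genotype is given as Hoxa2PTE-36kb-del and the control as WT, both labelled as cranial neural crest cells, and neither zygosity nor deletion coordinates were given. Each library has a batch label of its own, so batch was not tested. Md, commonly the mandibular process of the first arch, supplied 2 libraries of the same deletion and 2 of WT at E11.5, and PA2 at E11.5 supplied 2 more of a 42kb Hoxa2PTE deletion and 2 of Ezh2cKO, a conditional knockout of the Polycomb methyltransferase Ezh2. The genotype field of the second PA2 36kb library holds the title of another sample, so its group rests on its own title. The stretch of chromosome 6 between 50 and 53.5 Mb (GRCm38, 3.5 Mb) is described apart from the rest of the genome.

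Hoxa2 encodes a homeodomain transcription factor that gives the neural crest cells of the second arch their identity, and loss of it in mice turns second arch skeleton into first arch elements. The first arch, which forms the jaw, carries no Hox expression in its neural crest. The Hoxa genes lie in 1 cluster, and genes of such clusters are controlled by enhancers that can lie far outside them in gene-poor DNA. An enhancer acts on a promoter that it meets in space, and a called pair records such proximity, not transcription. With bulk libraries, a contact lost in a part of the cells and a contact weakened in all cells cannot be told apart.

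The 300-base promoters of the genes on which the results turn are given here because they place the contacts in sequence. They come from the RefSeq promoter table of GRCm38.p6, in which all 4 genes were found, and all 4 are printed from 5′ to 3′ on the minus strand of chromosome 6. In the Hoxa2 promoter (chr6:52164782-52165081) the capitals mark 1 match to TGATNNAT on the other strand, the core of the sites bound by HOX proteins with their PBX partners. In the Hoxa3 promoter (chr6:52213018-52213317) the capitals mark an AAGCTT, the HindIII site at 52213060 to 52213065 where 1 promoter fragment of the lists ends and the next begins. The Skap2 promoter (chr6:52012500-52012799) lies in the fragment with the highest-scoring gained pair. The promoter of the long noncoding RNA gene Gm32403 (chr6:51207302-51207601) lies inside the stretch that no library of the deletion called.
Hoxa2: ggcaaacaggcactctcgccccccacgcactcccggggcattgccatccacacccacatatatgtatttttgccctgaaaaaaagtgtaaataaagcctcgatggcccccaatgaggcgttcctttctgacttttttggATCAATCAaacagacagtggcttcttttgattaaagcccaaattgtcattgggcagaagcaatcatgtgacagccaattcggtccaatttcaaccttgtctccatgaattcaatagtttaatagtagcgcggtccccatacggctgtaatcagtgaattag
Hoxa3: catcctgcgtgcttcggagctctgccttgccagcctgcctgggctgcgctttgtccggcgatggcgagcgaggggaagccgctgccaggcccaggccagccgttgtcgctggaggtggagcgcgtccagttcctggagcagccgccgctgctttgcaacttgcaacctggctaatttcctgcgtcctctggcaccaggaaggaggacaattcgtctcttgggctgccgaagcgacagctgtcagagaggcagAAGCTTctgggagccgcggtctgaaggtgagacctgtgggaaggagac
Skap2: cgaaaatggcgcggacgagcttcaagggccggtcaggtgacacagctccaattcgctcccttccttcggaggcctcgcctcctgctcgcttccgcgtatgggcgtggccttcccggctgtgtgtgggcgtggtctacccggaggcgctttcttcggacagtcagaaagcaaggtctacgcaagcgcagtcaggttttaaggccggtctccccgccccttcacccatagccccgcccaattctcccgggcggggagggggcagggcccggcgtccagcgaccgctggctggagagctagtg
Gm32403: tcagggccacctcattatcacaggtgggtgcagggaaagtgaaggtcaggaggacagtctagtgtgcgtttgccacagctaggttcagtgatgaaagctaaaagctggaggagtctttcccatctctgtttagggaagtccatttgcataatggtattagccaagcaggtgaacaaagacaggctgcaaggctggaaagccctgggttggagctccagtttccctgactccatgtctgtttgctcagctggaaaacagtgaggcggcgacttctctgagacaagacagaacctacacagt

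Both motifs were searched on both strands. TGATNNAT was present in 8.85% of the 32851 promoters of the table and AAGCTT in 7.45%. Hoxa2 had a GC content of 45.7% and 9 CpG dinucleotides, whereas Skap2 had 66.0% and 28, against medians of 52.7% and 7 over all promoters. Gm32403 had 50.7% and 3.

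The 36kb deletion libraries held 142284 and 154013 called pairs, against 169967 and 171346 in WT. Of these, 136997 and 148666 were cis pairs in the deletion and 164459 and 165888 in WT. Cis pairs over 1 Mb made up 23.7% and 26.3% in the deletion and 30.7% and 30.0% in WT, and in Md both deletion libraries also lay below both WT libraries, the lowest being 25.7% in the deletion and 29.5% in WT. The median distance was 415 and 419 kb in the deletion and 463 and 453 kb in WT. Pairs between chromosomes were 3.72% and 3.47% of all calls in the deletion, against 3.24% and 3.19% in WT. At a score of at least 7 the direction turned, with 4.16% and 4.52% in the deletion and 5.05% and 4.99% in WT. Promoter-promoter pairs were 14.7% and 16.0% in the deletion and 14.4% and 14.2% in WT. With 2 libraries against 2, an exact two-sided permutation test cannot go below p = 0.333, so these library values are given as a description. Read depth was unknown, and a library that calls fewer pairs lacks some through depth alone, which was not tested. Counts per promoter were therefore divided by a library's total cis calls.

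The protocols name cell sorting for Wnt1::Cre;ROSARFP and Ezh2cKO embryos and for no others, and the contacts of the Wnt1 promoter differed between the groups in the same way. Wnt1, which encodes a signal of the dorsal neural tube and whose regulatory sequence drives the Wnt1::Cre transgene, had 0 and 0 calls to other chromosomes in the deletion and 468 and 449 in WT. Of the WT calls, 455 and 439 led to chromosome 11, and 189 and 192 of these to its stretch from 6 to 7 Mb. The Md libraries had 1 and 0 such interchromosomal calls in the deletion and 495 and 447 in WT. Without Wnt1, pairs between chromosomes were 3.72% and 3.47% in the deletion and 2.97% and 2.93% in WT, at a score of at least 5. At a score of at least 7, where the direction turned, the share without Wnt1 was not computed. The deletion, the Wnt1 signature and any sorting of the cells cannot be told apart in the results that follow.

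A stretch of chromosome 6 about 1 Mb from the Hoxa cluster was called in every WT library of PA2 and Md and in no 36kb deletion library. It comprises 8 neighbouring HindIII fragments, chr6:51173834-51212855, which span 39.0 kb, a little more than the 36 kb of the label. All pairs that touch it numbered 0 and 0 in the PA2 deletion libraries and 102 and 98 in PA2 WT. In Md they numbered 0 and 0 in the deletion and 99 and 94 in WT. The 42kb deletion libraries of PA2 had 1 and 0. The fragment most often called was chr6:51180767-51183201, with 0 and 0 calls in the deletion and 16 and 19 in WT. The stretch was chosen after its values were seen, as the run of fragments with at least 5 calls each in every WT library of PA2 and Md and none in any 36kb deletion library. It holds no protein-coding gene and 1 long noncoding RNA gene, Gm32403, whose promoter is printed above.

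Fragments beside the uncalled stretch kept some calls in the deletion, nearly all on the side away from the Hoxa cluster. On the side away from the Hoxa cluster, the adjoining fragment chr6:51171572-51173833 kept 4 and 5 calls in the deletion, against 13 and 14 in WT. The next one, chr6:51170426-51171571, kept 6 and 8 calls in the deletion, against 13 and 14 in WT. These 2 fragments belong to a flank of 5 (chr6:51167210-51173833). On it the 13 promoter fragments of the Hoxa cluster had 14 and 14 calls in the deletion and 41 and 40 in WT. They had 0 and 0 with the 42kb deletion. The flank was chosen for fragments with at least 2 calls in each PA2 WT library and at most 1 in each 42kb library. Its low 42kb counts were therefore fixed by that choice. On the side toward the cluster, the fragment chr6:51212856-51213428 had 0 and 1 calls in the deletion and 3 and 3 in WT. Beyond it, chr6:51213429-51220184 had 0 and 0 in the deletion and 3 and 2 in WT. The longest run with no call in either PA2 deletion library was a different one, chr6:51620625-51839320, which spans 219 kb and 27 fragments and had 8 and 7 calls in WT.

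**Figure D1:**
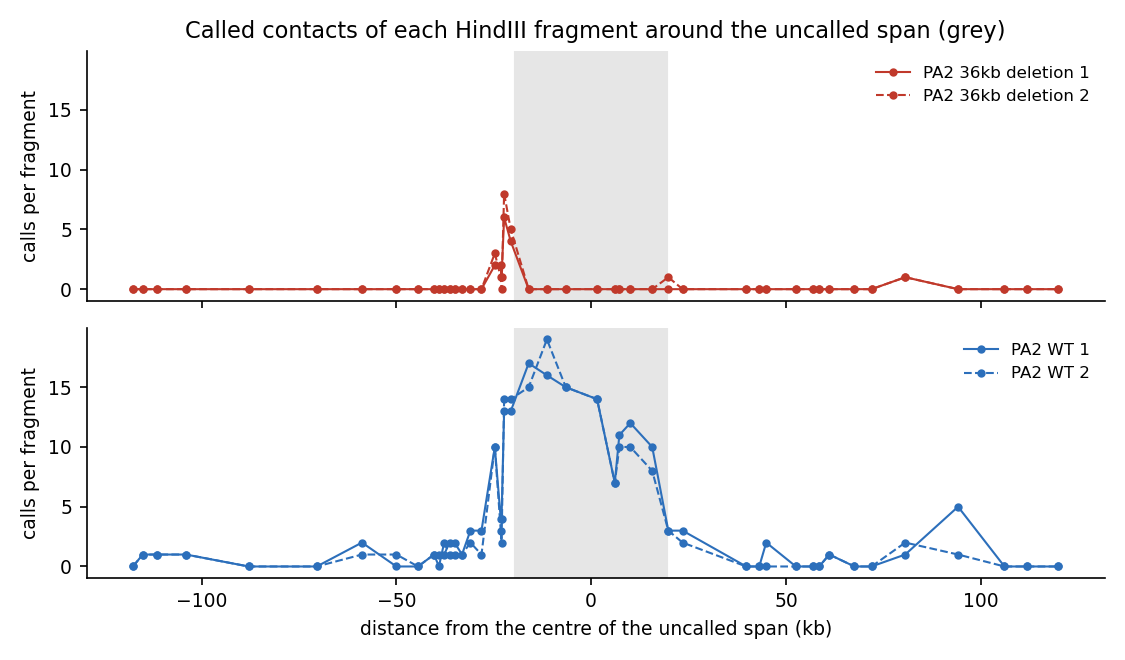
Called pairs of each HindIII fragment, by its distance in kb from the centre of the uncalled stretch (grey), with a line for each library. Both 36kb deletion libraries (top) are at 0 across the stretch, whereas WT libraries (bottom) hold 102 and 98 calls on it.

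Most far contacts of Hoxa2 itself that were called in WT were not called in the deletion. Its promoter fragment, chr6:52162863-52166906, which contains the start site of the gene, had 23 and 17 cis calls in the deletion and 64 and 64 in WT. The groups did not overlap, and both deletion libraries were low. Per 100000 cis calls, this is 14.1 ± 3.79 in the deletion and 38.7 ± 0.237 in WT (SD, n = 2 each), a log2 change of -1.46 (SE 0.34, adjusted p = 0.0344, limma over 10344 promoter fragments). Leaving out any 1 of the 4 libraries gave changes between -1.73 and -1.19 and adjusted p between 0.0717 and 0.167, so the call rests on having all 4. In Md the Hoxa2 fragment had 32 and 26 calls in the deletion and 25 and 23 in WT (log2 change 0.44, adjusted p = 0.509), and the difference between the tissues did not pass (adjusted p = 0.503).

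The Hoxa2 contacts called in WT and not in the deletion led mostly to the gene-poor interval beyond the uncalled stretch. Between Npvf, which encodes a neuropeptide precursor, and the flank (chr6:50654446-51167209), RefSeq places 15 long noncoding RNA genes, 1 pseudogene and no protein-coding gene. On this interval Hoxa2 had 6 and 5 calls in the deletion and 52 and 52 in WT. The WT calls reached from 50675578 and 50673532 to 51167209, and 46 fragments were called in both WT libraries. All 6 and all 5 calls left in the deletion lay on fragments that both WT libraries called as well, between 50810990 and 51005518. In Md the same count was 0 and 0 in the deletion and 0 and 0 in WT, so these contacts were called in the second arch and not in Md. The 42kb deletion had 0 and 2. PA2 libraries of Ezh2cKO embryos, whose controls are the same WT libraries, had 1 and 4, while their Hoxa cluster fragments kept 51 and 55 calls on the uncalled stretch. None of these fragments lies in the uncalled stretch. Calls over 1 Mb were also fewer over all promoters tested, with 29214 and 35704 in the deletion and 47268 and 46374 in WT.

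Of the pairs that joined Hoxa2 to this interval in both WT libraries, 36 of 46 were called in neither deletion library. They spanned 999.7 to 1488 kb, and the highest median score among them, 22.2, belonged to the fragment chr6:51000617-51003542. None of the 36 was called in a Md WT library. On the uncalled stretch Hoxa2 had 0 and 0 calls in the deletion and 5 and 6 in WT, and on the flank 5 and 4 in the deletion and 5 and 5 in WT, so its calls to the flank were nearly as many as in WT. Toward Skap2, between Snx10 and the cluster, it had 9 and 5 calls in the deletion and 0 and 0 in WT. In Md it had 13 and 13 calls there in the deletion and 6 and 8 in WT, and inside the Hoxa cluster, where PA2 had none in either group, 17 and 10 in the deletion and 5 and 5 in WT. When only calls within 1 Mb were counted, an alternative added after the data were seen, the Hoxa2 change was 0.24 (adjusted p = 0.783). Over 1 Mb, Hoxa2 had 6 and 5 calls in the deletion and 51 and 51 in WT.

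**Figure D2:**
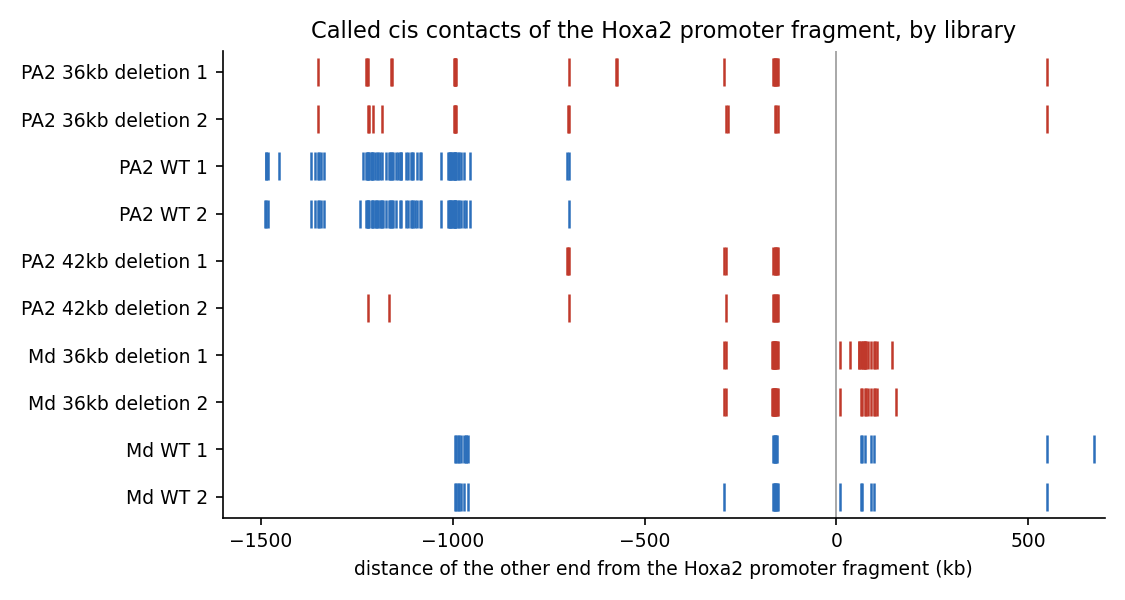
Each tick is a called cis contact of the Hoxa2 promoter fragment, placed by the distance of its other end in kb, with a row for each library of PA2 and Md. PA2 36kb deletion rows have 6 and 5 ticks on the interval from Npvf to the flank, PA2 WT rows 52 and 52, PA2 42kb deletion rows 0 and 2, and Md rows none.

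A neighbour of Hoxa2 also had far contacts in the same interval. The fragment of the noncoding genes 5730596B20Rik and LOC115490409, at chr6:52174760-52177869, between Hoxa2 and Hoxa4, had 0 and 0 calls there in the deletion and 12 and 8 in WT. In all its cis calls it had 22 and 17 in the deletion and 36 and 32 in WT (log2 change -0.58, adjusted p = 0.181, limma). It did not pass. The fragments of Hoxa4, Hoxa5, Hoxa6, Hoxa10, Hoxa11 and Hoxa13 held between 0 and 1 calls each on that interval in any of the 4 libraries, and the fragment of Hoxa3 and Hoxa7 had 3 and 5 in the deletion and 3 and 2 in WT.

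Of the 35 promoter fragments in the chromosome 6 window, 19 averaged at least 5 calls and were tested. Hoxa2 was the only one that passed, so 0 rose and 1 fell. An unadjusted p under 0.05 (limma) was found for 7 of the 19, against 1639 of all 10344 fragments tested. Over all 10344 fragments tested, 0.851% fell and 0.648% rose, so 1 of 19 is too few to compare with the background. The fragment of Hoxa3 and Hoxa7, homeobox genes of more posterior segments, had 29 and 30 calls in the deletion and 31 and 32 in WT (log2 change 0.12, adjusted p = 0.832). Hoxa4 had 24 and 15 in the deletion and 27 and 30 in WT (-0.36, adjusted p = 0.488). Hoxa5 had 19 and 26 in the deletion and 29 and 30 in WT (-0.19, adjusted p = 0.667). These fragments had calls to the uncalled stretch in WT, yet their totals did not pass the test.

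The remaining Hoxa fragments covered both signs. Hoxa6 had 27 and 20 calls in the deletion and 28 and 30 in WT (log2 change -0.10, adjusted p = 0.852). Hoxa10 had 9 and 7 in the deletion and 13 and 18 in WT (-0.69, adjusted p = 0.324). Hoxa11, a limb and kidney patterning gene, had 37 and 23 in the deletion and 26 and 22 in WT (0.49, adjusted p = 0.345). Hoxa13, which patterns the distal limb and hindgut, had 19 and 21 in the deletion and 18 and 14 in WT (0.53, adjusted p = 0.289). Beyond the cluster, the homeobox gene Evx1 had 37 and 34 in the deletion and 26 and 30 in WT (0.55, adjusted p = 0.25). Skap2, which encodes an adaptor protein of immune cells, had 40 and 34 in the deletion and 22 and 29 in WT (0.75, adjusted p = 0.19), and Mpp6 11 and 10 against 9 and 5 (0.82, adjusted p = 0.199). None of these fragments passed.

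Counted over the 13 promoter fragments of the Hoxa cluster together, calls were lower toward the far side of the uncalled stretch and higher near the cluster. On the interval from Npvf to the flank they had 12 and 11 calls in the deletion and 89 and 82 in WT, of which Hoxa2 supplied 6 and 5 and 52 and 52. On the uncalled stretch they had 0 and 0 in the deletion and 86 and 80 in WT. Between Snx10 and the cluster, the block of Skap2, they had 148 and 124 in the deletion and 82 and 92 in WT, although the deletion libraries held fewer calls in all. With both ends in the cluster, counted up to Evx1, they had 27 and 21 in the deletion and 5 and 5 in WT. Beyond Evx1, from Hibadh to Creb5, they had 49 and 32 in the deletion and 32 and 33 in WT, which overlapped as raw calls; per 100000 cis calls, 35.8 and 21.5 in the deletion and 19.5 and 19.9 in WT did not. These borders were drawn after the calls were seen, and the sums have no test.

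Md showed the same ordering near the cluster but not on the far interval. In Md, the block of Skap2 had 150 and 140 calls of the cluster in the deletion and 80 and 88 in WT. With both ends in the cluster there were 61 and 45 in the deletion and 11 and 11 in WT. On the interval from Npvf to the flank there were 3 and 5 in the deletion and 1 and 1 in WT. The Md libraries share no sample with those of PA2. With the 42kb deletion, PA2 had 138 and 142 calls on the block of Skap2 and 38 and 30 inside the cluster.

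**Figure D3:**
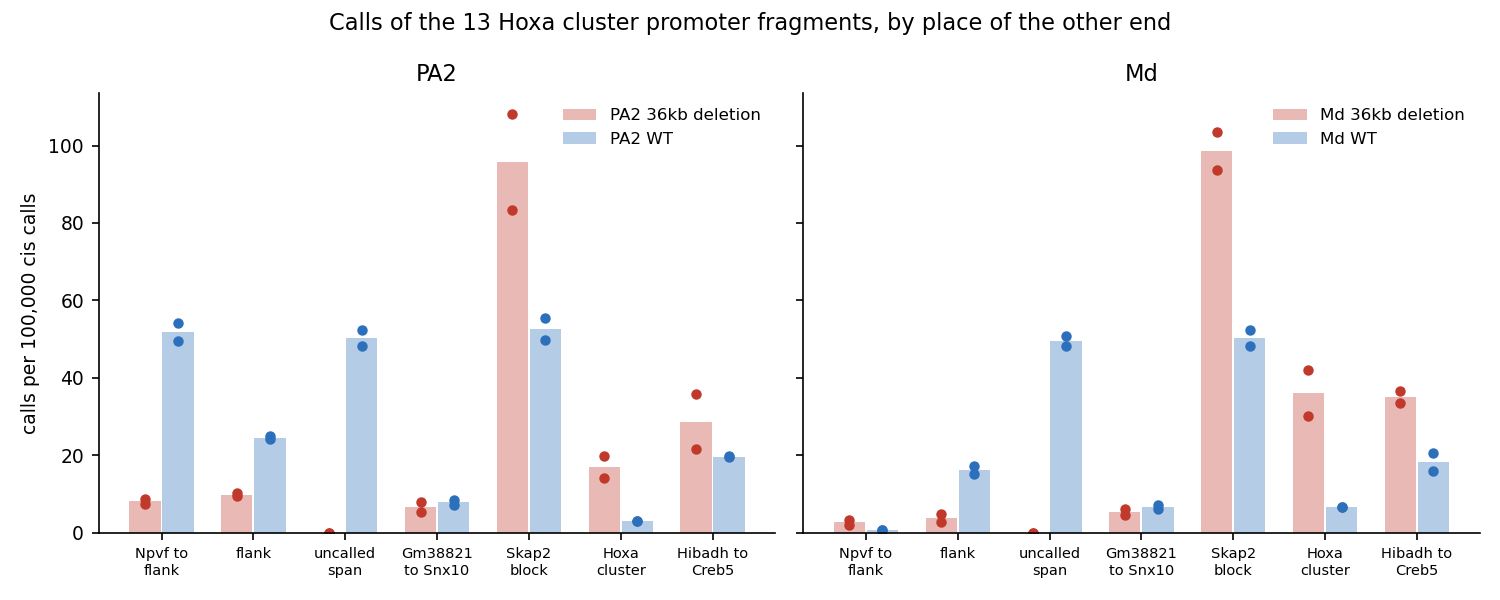
Calls of the 13 Hoxa cluster promoter fragments per 100,000 cis calls, by where the other end lies, in PA2 and in Md (bars are means, points are the 2 libraries). On the uncalled stretch the deletion is at 0 in both tissues; on the interval from Npvf to the flank PA2 has 8.76 and 7.40 in the deletion and 54.1 and 49.4 in WT, while Md has 2.07 and 3.35 in the deletion and 0.60 and 0.59 in WT.

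Pair by pair, the chromosome 6 window held 936 distinct called cis pairs over the 4 libraries. Of 379 called in both WT libraries, 190, or 50.1%, were called in neither deletion library. In the rest of the genome this share was 26.3% (22565 of 85958), which describes the window and was not tested. For pairs over 500 kb the shares were 74.0% in the window (174 of 235) and 34.5% elsewhere. For pairs within 500 kb they were 11.1% in the window (16 of 144) and 22.1% elsewhere. These window shares include pairs that touch the uncalled stretch, whose loss was fixed by how the stretch was chosen. Shares by distance without those pairs were not computed. Of the 190, 90 touched the uncalled stretch, which is 100% of the pairs there that both WT libraries called. The flank held 23 (of 40 pairs, 57.5%) and the interval from Npvf to the flank 50 (of 63, 79.4%). The other 27 touched none of these (of 186, 14.5%). Without pairs that touch the uncalled stretch, 100 of 289 were lost, or 34.6%.

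Of the 10 lost pairs with the highest median scores, the 8 described here led from the cluster to the first fragments of the uncalled stretch. Scores depend on the background model of each list, so they rank pairs here and are not compared between groups. The pair of Hoxa4 with chr6:51180767-51183201, 1010 kb apart, had the highest median score in WT, 145, and that of Hoxa5 with the same fragment had 137. Hoxa10 (80.5), Hoxa6 (79.2), the fragment of Hoxa3 and Hoxa7 (75.2) and Hoxa11 (58.7) met the same place. The pair of 5730596B20Rik and LOC115490409 with chr6:51173834-51180766 had 74.2, and that of Hoxa6 54.6. All 8 were called in both Md WT libraries and in no Md deletion library. By contrast, the 50 lost pairs of the interval from Npvf to the flank were called in no Md WT library.

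Pairs called in both deletion libraries and in neither WT library numbered 55 of 236 in the window, or 23.3%, near the 20.0% of the rest of the genome. Of the 118 pairs between the block of Skap2 and the cluster that both deletion libraries called, 28 were gained, or 23.7%, close to the window's share. Of the 15 with both ends in the cluster, 11 were gained, or 73.3%. None touched the uncalled stretch. The highest median score, 15.8, belonged to the Skap2 promoter and the fragment of 5730596B20Rik and LOC115490409, 163 kb apart. The noncoding gene Gm15050 and Hoxa11 had 11.4. Both pairs were called in both Md deletion libraries and in neither Md WT library.

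Among the 10 gained pairs with the highest median scores, 3 led to the far side of Evx1. Evx1 met the fragment that starts at 52919068 (median score 9.31) and Hoxa11 the one at 52915616 (8.47). Hoxa2 met the promoter of Tax1bp1, an autophagy adaptor, at 8.56, a pair called in both Md WT libraries and no Md deletion library. The Skap2 promoter had 32 and 30 calls with the cluster in the deletion and 10 and 16 in WT. In Md it had 25 and 31 in the deletion and 15 and 26 in WT, which overlapped as raw calls; per 100000 cis calls, 17.2 and 20.7 in the deletion and 9.06 and 15.5 in WT did not.

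The window as a whole held a share of 0.305% and 0.248% of cis calls in the deletion and 0.311% and 0.312% in WT, with 418 and 369 calls in the deletion and 511 and 518 in WT. One deletion library lay near WT and the other lay below it.

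Outside the window, 67 promoter fragments rose and 87 fell among 10325 tested, at median log2 changes of 1.57 and -1.54 for those called, and 1632 had an unadjusted p under 0.05. Those that rose had 1248 and 1279 calls in the deletion and 513 and 514 in WT. Those that fell had 1050 and 1367 in the deletion and 3366 and 3382 in WT. Over all 10344 fragments tested, cis pairs over 1 Mb made up 22.0% and 24.2% of calls in the deletion and 29.0% and 28.3% in WT. For those that rose the share was 18.8% and 21.0% in the deletion and 16.6% and 15.4% in WT. For those that fell it was higher, 47.1% and 50.5% in the deletion and 50.4% and 50.4% in WT. Few of these calls held when 1 library was left out: 2 of the 67 and 4 of the 87 passed without any 1 of the 4.

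**Figure D4:**
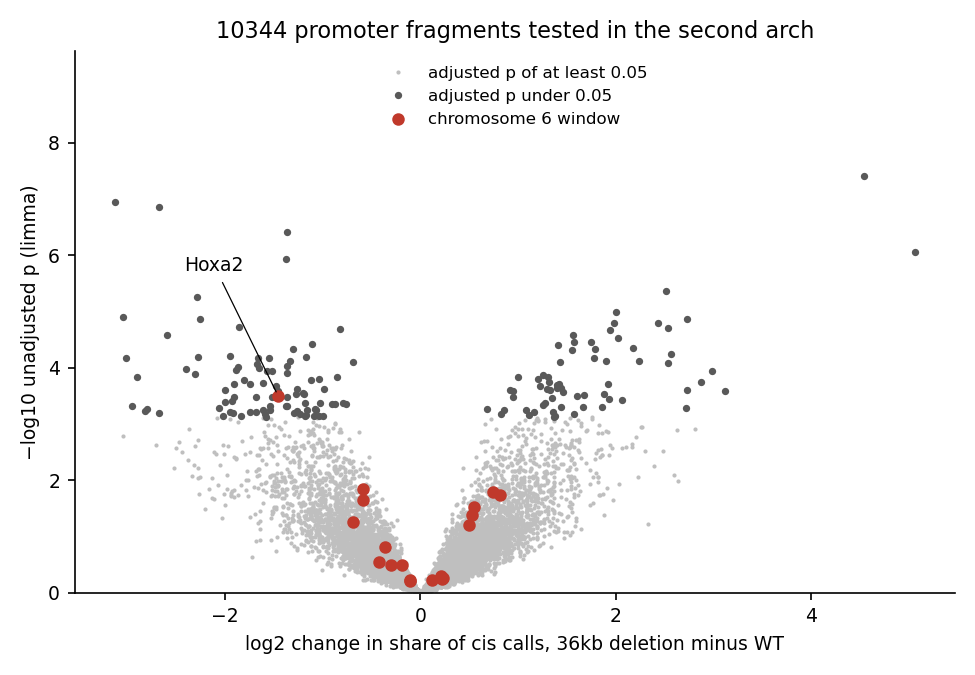
Each point is 1 of the 10344 promoter fragments tested, placed by its log2 change (36kb deletion minus WT) and the −log10 of its unadjusted p from limma. Among the 19 fragments of the chromosome 6 window (red) only Hoxa2 passed, and 67 fragments outside rose and 87 fell.

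Of the 10 largest rises outside the window, 4 also passed in Md. Olfr1002, an olfactory receptor gene, had 20 and 30 calls in the deletion and 1 and 0 in WT (log2 change 5.06, SE 0.74, adjusted p = 0.00181, limma). Glp1r, the receptor of the gut hormone GLP-1, had 6 and 15 in the deletion and was listed at 0 and 0 in WT, so its fitted change is no bound. Sprr2b, a protein of the cornified skin layer, had 21 and 16 in the deletion and 2 and 2 in WT (3.12, adjusted p = 0.0312). Pcdha3, a neuronal cell adhesion gene of the alpha protocadherin cluster, had 15 and 18 in the deletion and 2 and 3 in WT (2.73, adjusted p = 0.0115). Olfr1002 and Glp1r kept their call without any 1 library, Sprr2b and Pcdha3 did not (highest adjusted p 0.186 and 0.0907). In Md the same 4 fragments passed in the same direction, with Md deletion counts of 28 and 35, 9 and 11, 16 and 22, and 21 and 16. The Md WT libraries held 1 and 2, 0 and 0, 0 and 1, and 2 and 2 of these. In the same order, the PA2 42kb deletion had 13 and 15, 1 and 1, 15 and 20, and 21 and 18. PA2 Ezh2cKO had 2 and 3, 22 and 29, 4 and 2, and 2 and 2. Glp1r was thus low with the 42kb deletion and high in Ezh2cKO, unlike the others.

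None of the other 6 of the 10 largest rises passed in Md. The fragment of the imprinted genes Peg10 and Sgce had 9 and 9 calls in the deletion and 0 and 4 in WT. The fragment of Ercc3, a DNA helicase of transcription and repair, and the kinase gene Map3k2 had 7 and 5 in the deletion and 2 and 0 in WT. Nck2, an adaptor of receptor kinases, had 11 and 3 in the deletion and 2 and 0 in WT. Itgb8, an integrin subunit, had 11 and 8 in the deletion and 2 and 1 in WT. Trir had 6 and 14 in the deletion and 2 and 1 in WT, and the olfactory receptor gene Olfr1246 10 and 12 against 1 and 3. All 6 lost their call when 1 library was left out, with highest adjusted p between 0.128 and 0.376.

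Of the 10 largest falls, 4 also passed in Md. The fragment of Amh, the hormone that regresses the female duct in males, Jsrp1, Plekhj1 and the splicing factor gene Sf3a2 had 1 and 1 calls in the deletion and 18 and 12 in WT (log2 change -3.13, SE 0.40, adjusted p = 0.000482, limma). The fragment of Brd2, a chromatin reader, and H2-DMa, which loads peptides onto class II histocompatibility molecules, had 4 and 3 in the deletion and 27 and 31 in WT (-2.68, SE 0.35, adjusted p = 0.000482). Both kept their call without any 1 library, with highest adjusted p of 0.0136 and 0.0144. In Md the same 2 fragments passed in the same direction, with 4 and 5 and 0 and 0 calls in the deletion, against 14 and 25 and 31 and 31 in WT. Fkbp2, a protein folding isomerase, had 1 and 2 in the deletion and 17 and 19 in WT (-3.04, adjusted p = 0.0115). Arsa, a lysosomal sulfatase, had 0 and 1 in the deletion and 7 and 7 in WT (-2.90, adjusted p = 0.0257). Both passed in Md as well, but lost their PA2 call when 1 library was left out.

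The remaining falls did not pass in Md. Alox12, a lipoxygenase, had 0 and 4 calls in the deletion and 14 and 13 in WT. The keratinocyte gene Kprp had 3 and 0 in the deletion and 7 and 15 in WT. The fragment of the RNA polymerase II subunit gene Polr2g and Taf6l had 2 and 0 in the deletion and 8 and 9 in WT. The fragment of B4gat1 and Slc29a2, a nucleoside transporter, had 0 and 1 in the deletion and 5 and 7 in WT. The fragment of Esrra, a nuclear receptor of energy metabolism, and Catsperz, a sperm ion channel part, had 2 and 8 in the deletion and 44 and 23 in WT. Cdk5rap3 had 0 and 2 in the deletion and 5 and 8 in WT. Each of these falls lost its call when 1 library was left out.

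**Figure D5:**
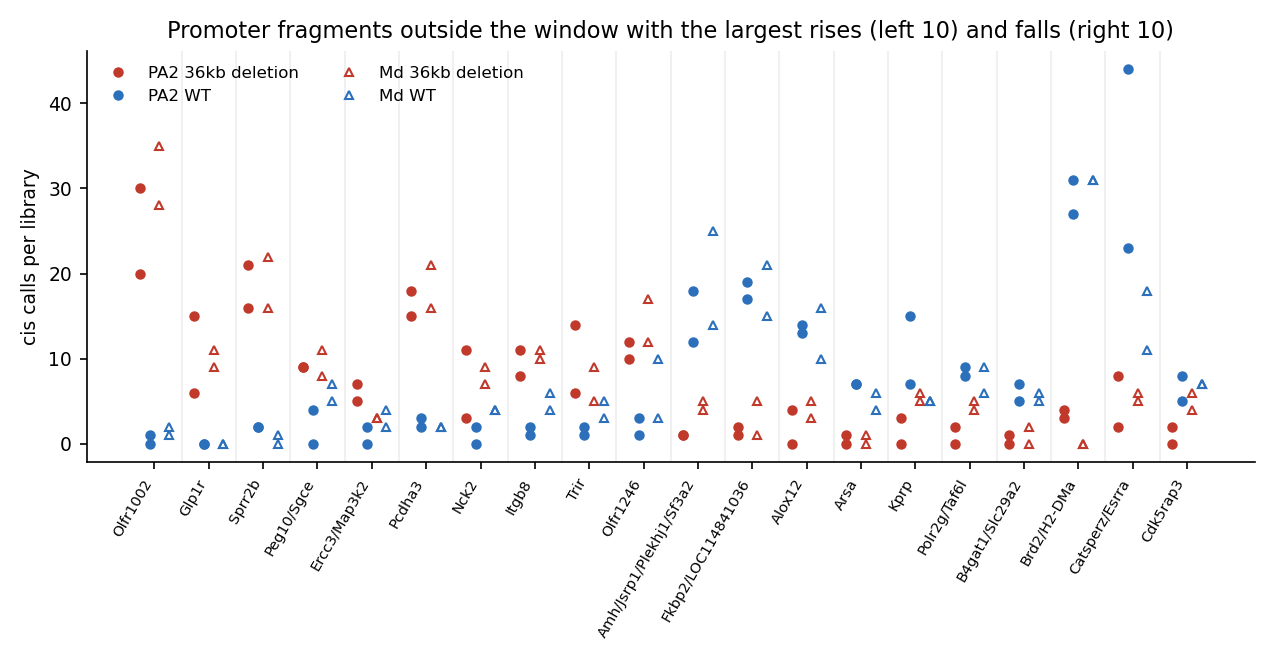
Cis calls per library of the 10 largest rises (left) and the 10 largest falls (right) outside the window, for PA2 (filled circles) and Md (open triangles), deletion in red and WT in blue. In PA2 the libraries of the groups are apart at all 20 fragments, as the choice of the largest changes fixes; Olfr1002 has 20 and 30 calls in the deletion and 1 and 0 in WT.

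Across the genome, Md called 1.27% of fragments higher and 1.82% lower in the deletion. Of the 67 PA2 fragments that rose, 26 rose in Md as well and 0 fell, and 65 had the same sign. Of the 87 that fell, 32 fell in Md and 0 rose, and 84 had the same sign. The comparisons share no library, but the same fit gave both the same spread for each fragment, so they are not independent. Both deletion groups also lack the interchromosomal Wnt1 calls of both WT groups. The difference between the PA2 and Md changes passed for 2 of the 10344 fragments (0.0193%), and 551 had an unadjusted p under 0.05.

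Genes of the second arch and of facial patterning did not pass the test, apart from Hoxa2. Over all fragments tested, 0.648% rose and 0.851% fell, so the lists here are too small to compare with that background. Among 43 Hox promoter fragments tested, 0 rose and 1 fell, Hoxa2, with a median log2 change of -0.10, against 0.04 over all fragments. Among 32 fragments of second arch and Hoxa2-related genes, 0 rose and 1 fell, again Hoxa2, with a median of 0.01. Of 33 facial patterning, 20 neural crest and 19 skeletal and connective tissue fragments, 0 rose and 0 fell, with medians of -0.10, -0.14 and -0.11. Among 17 housekeeping fragments, 1 fell: that of the ribosomal protein gene Rpl13a and Flt3l, with 15 and 14 calls in the deletion and 31 and 40 in WT (log2 change -1.04, adjusted p = 0.0269), and it fell in Md too (adjusted p = 0.0418). Of 13 Polycomb fragments none passed.

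Promoters of genes that mark other cell types did not pass either. None of the tested fragments of epithelial (7), endothelial (7), muscle (6), neuronal and glial (5) and blood (12) markers rose or fell. These lists are too small to compare with the 0.648% that rose and 0.851% that fell over all fragments. Calls were also summed over all promoter fragments of each list, tested or not. These were 14 epithelial, 14 endothelial, 13 muscle, 12 neuronal and glial and 17 blood fragments. Per 100000 cis calls, the sums were 99.3 and 100.2 in the deletion and 93.6 and 108 in WT for the epithelial list. They were 94.9 and 80.0 in the deletion and 104 and 103 in WT for the muscle list, which did not overlap, and 43.1 and 53.1 in the deletion and 61.4 and 54.3 in WT for the endothelial list, which did not overlap either. The neuronal and glial list had 102 and 83.4 against 89.4 and 89.2, and the blood list 104 and 139 against 126 and 133. Calls at a promoter are not expression, so these sums do not measure the share of a cell type. Wnt1 had 6 and 6 cis calls in the deletion and 12 and 7 in WT (log2 change -0.36, adjusted p = 0.604).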

How the data were processed

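Called pairs of 2 HindIII fragments were analysed as deposited, 1 list per library, in GRCm38 (mm10) coordinates per the submitters' processing notes. Each deposited score is a CHiCAGO score of at least 5, per the file names. No source used here names the aligner, the caller version or its parameters, and the depth in reads was unknown. The 22203 fragments listed first in any library were taken as promoter fragments, and 16571 were named from RefSeq by a protein-coding start site inside, or within 1 kb. For a gene without a start site in the table either gene end was used. Cis calls with the fragment at either end were counted, and log2 of calls plus 0.5 per total cis calls was fitted for the 10344 fragments with a mean of at least 5 calls. The fit used limma 3.58.1 in R 4.3.3 (12 group means over 24 libraries, trend, two-sided, Benjamini-Hochberg, threshold 0.05) and was checked on simulated data. P-values measure the spread between libraries. The window, gene lists and tests were chosen with earlier results of these data known. Named were all Hoxa promoters, the 10 largest rises and falls outside the window, up to 15 list genes past the threshold (there was 1), Wnt1, and the 10 lost and gained pairs with the highest median score. Alternatives changed the libraries, filter, added value, scaling, trend and score minimum. Figures were drawn with matplotlib. Some named results under this rule are not reported here.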

Additional observations from a re-analysis of the deposited data

Results flagged for a closer look

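The change with the 36kb deletion differed between PA2 and Md at 2 promoter fragments, by a test of that difference in limma over 10344 fragments. The fragment of Tssk4, a testis kinase gene, had 11 and 10 calls in the PA2 deletion and 9 and 7 in PA2 WT, and 0 and 0 in the Md deletion and 8 and 7 in Md WT. The PA2 change minus the Md change was 4.41 on the log2 scale (adjusted p = 0.00177), and since Md deletion is at 0 its size depends on the value added before the log. The fragment of Brd2 and H2-DMa had 4 and 3 calls in the PA2 deletion and 27 and 31 in PA2 WT, and 0 and 0 in the Md deletion and 31 and 31 in Md WT, a difference of 3.12 (adjusted p = 0.0135) that depends on the added value in the same way.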

How the results depend on the processing

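Outside the chromosome 6 window, the counts of promoter fragments that rose and fell, 67 and 87, depended on the fit. Fitting only the 4 PA2 libraries gave 3 and 3, and adding the replicate number as a replicate block to that fit gave 149 and 199. Same-numbered libraries did not deviate together (r = -0.00258), so the numbers do not pair them. A mean of at least 10 calls gave 43 rises, a score of at least 7 gave 28 and 51, and no variance trend gave 53 falls. Leaving out 1 library gave 10 to 67 rises and 6 to 233 falls: 10 and 35 without 36kb deletion replicate 1, 67 and 233 without replicate 2, 16 and 6 without WT replicate 1, and 15 and 8 without WT replicate 2. In the window, the 1 fall (Hoxa2) became 0 in the 4-library fit, without the variance trend, with calls within 1 Mb only, and without any 1 library (0 to 0). The Hoxa2 change stayed at -1.46 in the 4-library fit (adjusted p = 0.0728, limma) and without the trend (adjusted p = 0.066), was 0.24 with calls within 1 Mb (added after seeing the data), and ranged from -1.73 to -1.19 without 1 library. The window's share of cis calls differed by -0.0348 percentage points, by -0.0813 at a score of at least 7, and by -0.0633 to -0.00637 without 1 library. Interchromosomal calls differed by 0.381 percentage points, by -0.675 at a score of at least 7, and by 0.259 to 0.503 without 1 library. Without 1 library, calls over 1 Mb differed by -6.63 to -4.04 percentage points, the median distance by -46.1 to -36.1 kb and promoter-promoter calls by 0.395 to 1.69 percentage points. Gained pairs in the window, 55, were 29 at a score of at least 7 and 25 when the next fragment counted as the same pair. The causes were not tested. Read depth was unknown, so a pair that was not called is not shown to be absent.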
